A study of Mus musculus with 7 samples.

Results

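Adcy3, Pde1c, Pde4a, Grk3 and Grk2 encode the enzyme that makes cyclic AMP in response to odors, a pair of enzymes that break it down, and a pair of kinases that act on activated receptors. They were chosen by name as genes of odor response and adaptation, and are 5 of the 54532 genes in the expression tables. Messenger RNA was measured by RNA sequencing after FACS, which sorts cells by fluorescence, of the olfactory epithelia of young mice. The first group was labelled mature olfactory sensory neurons and came from OMP-GFP mice at postnatal days 2, 7 and 16 (P2, P7 and P16; n = 3 libraries). The other group was labelled intermediate progenitor cells and came from Neurog1-GFP mice at P3, P7, P9 and P16 (n = 4 libraries). Each library was made from pooled sorted cells and each age had 1 library per group, so the libraries of different ages served as replicates and their spread includes age. The labels do not say whether the pools shared animals, so p-values here reflect only how these libraries scatter. Every mature library came from one mouse line and every progenitor library from the other, so cell population and line cannot be told apart.

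In an olfactory sensory neuron, an odorant receptor acts through the G protein Golf on adenylyl cyclase type III, the product of Adcy3, and the cyclic AMP that results opens a cation channel in the cilia. Phosphodiesterase 1C, the product of Pde1c, is stimulated by calcium and calmodulin and lies in the cilia, whereas phosphodiesterase 4A, the product of Pde4a, is found in the rest of the neuron. G protein-coupled receptor kinase 3, the product of Grk3, phosphorylates activated odorant receptors, and the closely related kinase of Grk2 does the same for many receptors in most tissues.

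Gene counts summed to between 24203965 and 25930727 per library. Of 6 markers of mature neurons, 5 were higher in the mature libraries; the sixth, Omp, stood at 1936 ± 442 CPM (SD, n = 3; gene counts scaled to library size with TMM factors) against 2566 ± 632 CPM (SD, n = 4) in progenitors (edgeR adjusted p = 0.179). The 6 mature markers summed to between 14578 and 20432 CPM in mature libraries and still reached 5599 to 8476 CPM in progenitor libraries. Of 6 progenitor markers, 5 were lower in mature libraries, with sums of 47.8 to 106 CPM against 941 to 1752 CPM, and of 6 markers of immature neurons, 5 were lower, with sums of 1704 to 2566 CPM against 6946 to 8072 CPM. Most sums for other cells of the tissue were also higher in mature libraries. Each sum is over all 6 markers of a list. For comparison with the counts of markers called, 28.8% of all tested genes were higher in mature neurons and 30.0% lower. Sustentacular markers (3 of 6 higher) summed to between 3617 and 3857 CPM against 1918 to 2799 CPM, respiratory ciliated markers (5 of 6 higher) to between 449 and 499 CPM against 206 to 249 CPM, and ensheathing glia markers (5 of 6 higher) to between 21.3 and 56.5 CPM against 5.92 to 16.3 CPM. Leukocyte markers (4 of 5 tested higher) summed to between 12.0 and 46.3 CPM against 4.22 to 11.4 CPM. Bowman gland markers (2 of 6 higher) summed to between 119 and 759 CPM against 45.0 to 114 CPM. Erythroid markers (1 of 5 tested higher) gave overlapping sums of 35.1 to 292 CPM against 17.4 to 125 CPM. The mature P16 library was the highest for these last 3 lists. The sums also overlapped for endothelium and fibroblasts (3 of 5 tested higher), at 89.0 to 204 CPM against 61.2 to 114 CPM. They did not overlap for horizontal basal cells (1 of 6 higher), at 28.4 to 66.9 CPM against 15.2 to 22.4 CPM. Microvillous cell markers (1 of 6 higher, 2 lower) went the other way, from 43.5 to 84.6 CPM in mature libraries against 101 to 159 CPM. No marker was at 0 in all 7 libraries, and the part of these other cells in the results was not tested.

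Promoter sequence was found in the RefSeq table (build GRCm38.p6) for 3 of the 5 genes, in 8 windows of 250 bases before an annotated start. One window per gene is shown for Adcy3, Pde1c and Pde4a, the 3 abundant genes that were higher in mature neurons together. It was taken as the window with at most 30 exon bases and the most motif matches, or the first of these in the table where they tied, as for Pde1c, which has another window with 1 match, to an E-box. Capitals mark matches, on either strand, to CCCNNGGG (the core bound by Ebf factors), TAATTA (LIM homeodomain factors), CAGNTG (an E-box), TGACG (the core of the cyclic AMP response element) or GTTNCC (the core bound by RFX factors). The Adcy3 window lies on the plus strand at chr12:4133903-4134152, the Pde1c window on the minus strand at chr6:56369635-56369884 and the Pde4a window on the plus strand at chr9:21183851-21184100. All 3 lie inside the annotated gene, before an internal start, and hold 6, 0 and 0 exon bases.
Adcy3: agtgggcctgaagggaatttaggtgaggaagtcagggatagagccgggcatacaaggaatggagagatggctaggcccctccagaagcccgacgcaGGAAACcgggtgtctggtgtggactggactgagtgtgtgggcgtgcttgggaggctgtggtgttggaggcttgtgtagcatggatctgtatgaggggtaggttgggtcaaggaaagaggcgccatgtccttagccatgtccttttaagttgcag
Pde1c: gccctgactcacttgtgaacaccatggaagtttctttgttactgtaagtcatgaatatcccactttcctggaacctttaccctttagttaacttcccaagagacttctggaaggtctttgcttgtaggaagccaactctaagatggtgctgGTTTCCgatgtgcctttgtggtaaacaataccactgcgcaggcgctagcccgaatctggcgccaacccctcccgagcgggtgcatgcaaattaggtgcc
Pde4a: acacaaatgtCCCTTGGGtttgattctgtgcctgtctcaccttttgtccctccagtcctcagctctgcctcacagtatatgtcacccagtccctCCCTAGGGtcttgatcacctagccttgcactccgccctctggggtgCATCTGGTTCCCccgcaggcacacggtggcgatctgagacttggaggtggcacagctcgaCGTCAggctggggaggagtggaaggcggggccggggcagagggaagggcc
The Adcy3 and Pde1c windows each hold 1 match, to GTTNCC, which 39.4% of all 32851 promoter windows of the same length also hold. The Pde4a window holds 2 matches to CCCNNGGG, present in 11.8% of all windows, and 1 match each to CAGNTG (44.8%), TGACG (17.8%) and GTTNCC, the first and last of which adjoin. TAATTA (4.84% of all windows) is in none of the 3. The other Pde4a windows, including that just before the annotated gene, hold no match to any of these motifs. The printed windows were chosen for their matches, while the shares are over all windows, so the matches cannot be judged against those shares. The expression tables are per gene and do not say which start was used, so these matches describe the sequence only.

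For the synthesis of cyclic AMP, the data show a single dominant cyclase that was far more abundant in mature neurons. Adcy3 (ENSMUSG00000020654) spans chr12:4133103-4213525 on the plus strand (GRCm38). Its level was 492 TPM (a measure of transcript abundance scaled for transcript length and library total), 671 TPM and 855 TPM in the mature libraries of P2, P7 and P16. In progenitors it was 185, 108, 193 and 154 TPM at P3, P7, P9 and P16. The groups did not overlap: the lowest mature library, P2, stood well above the highest progenitor library, P9, and the P7 progenitor library was the lowest of all.

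Adcy3 was 4.67-fold higher in mature neurons in the edgeR fit to counts (log2 difference 2.22, SE 0.26, adjusted p = 0.000168). The means were 673 ± 182 TPM (SD, n = 3) against 160 ± 38.5 TPM (SD, n = 4). Across the 17975 genes that passed the filter on low counts, 28.8% were called higher in mature neurons, 30.0% were called lower, and 365 genes (2.03%) had a larger log2 difference than Adcy3. Of all calls, 49.0% were higher with TMM scaling and 38.2% with library sizes alone. In sorted pools, fewer cells of a type and less RNA per cell cannot be told apart. At the 2 ages present in both groups, the CPM ratio was 6.95 at P7 and 6.29 at P16.

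Adcy3 ranked between 113 and 263 among all genes by TPM in mature libraries, and between 861 and 1800 in progenitor libraries. Of its exon bases, 1380 of 6246 (22.1%) are also exon of Cenpo, a centromere protein gene on the opposite strand. The counting's strand setting is not given in the sources used here. Cenpo itself had only 93 to 106 counts in mature libraries and 232 to 306 in progenitors, against 7102 to 60899 counts for Adcy3, and was lower in mature neurons (log2 difference -1.16).

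**Figure D1:**
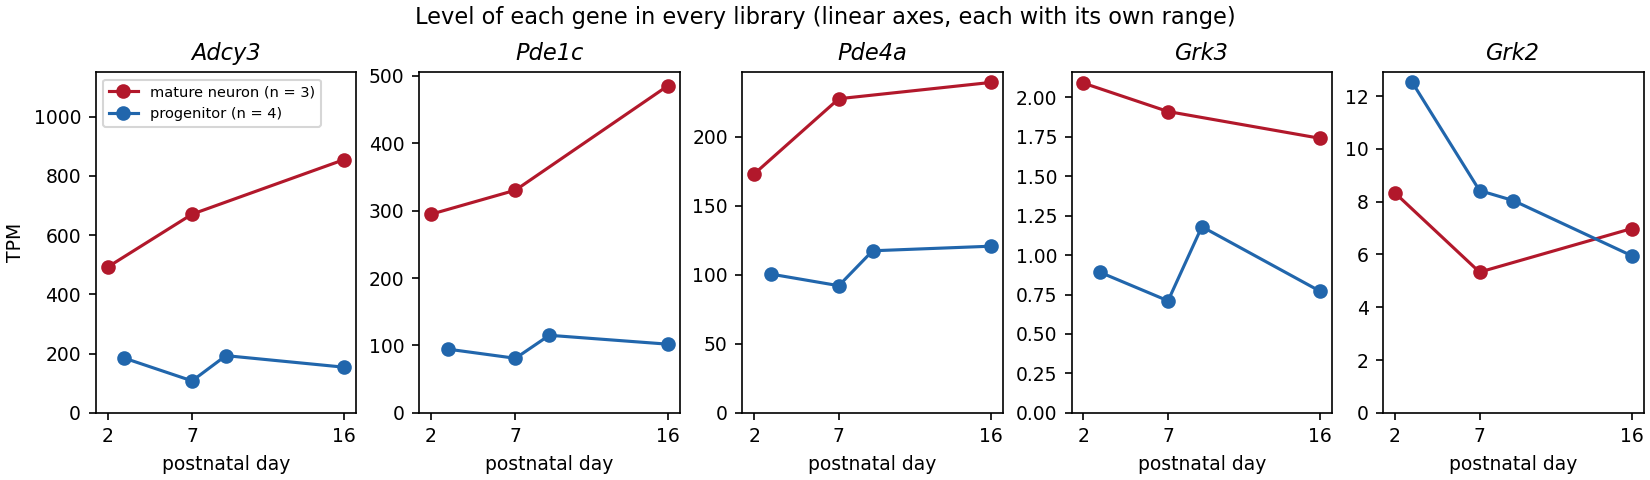
TPM (y axis, linear, each panel with its own range) of the 5 genes against postnatal day (x axis), 1 point per library, with lines joining the libraries of a group (red, mature neurons, n = 3; blue, progenitors, n = 4). The red points lie above all blue points for Adcy3, Pde1c, Pde4a and Grk3, whereas for Grk2 the groups overlap, from 5.33 to 8.33 TPM in mature neurons and from 5.95 to 12.5 TPM in progenitors.

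The other adenylyl cyclases were scarce in both populations. Summed over the 10 adenylyl cyclase genes, the level was 682 ± 179 TPM (SD, n = 3) in mature neurons and 168 ± 38.8 TPM (SD, n = 4) in progenitors. Adcy3 made up 97.8%, 98.6% and 99.2% of that sum in the mature libraries of P2, P7 and P16. In progenitors it made up 94.8%, 92.4%, 95.9% and 96.4% at P3, P7, P9 and P16. Every mature share was above every progenitor share, by 3.67 percentage points on average (98.6% ± 0.720 against 94.9% ± 1.78). The two-sided exact permutation p was 0.0286, the smallest the 35 arrangements allow, and 0.0381 after adjustment over the 4 shares tested here. In level, 29.2% of all tested genes lay without overlap higher in mature neurons and 32.2% lower. The share is computed from the levels above and is not separate evidence.

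As a share of all tested genes, 28.8% were called higher in mature neurons and 30.0% lower. Of the 7 other cyclases that could be tested, 1 was called higher and 1 lower. The median log2 difference was 0.46 over the 7, against 0.01 over all genes tested. The 2 called cyclases are of low level and were named after their values were seen. Adcy5 rose by 1.14 on the log2 scale (SE 0.30, adjusted p = 0.0106) and Adcy1, a cyclase stimulated by calmodulin, fell by 1.57 (SE 0.27, adjusted p = 0.00137). Without the P16 progenitor library, 2 cyclases were called lower, and on log2(TPM + 1), where mean TPM had to reach 1, Adcy3 alone was called. Adcy6, also named after its values were seen, held the next largest share in progenitors, between 1.002% and 3.64%, and between 0.274% and 1.01% in mature neurons.

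For breakdown, both phosphodiesterases were higher in mature neurons, Pde1c by more than Pde4a. Pde1c (ENSMUSG00000004347) spans chr6:56069804-56569103 on the minus strand. Its level was 295, 330 and 485 TPM in the mature libraries of P2, P7 and P16, and 94.5, 80.9, 115 and 102 TPM in progenitors at P3, P7, P9 and P16. No library of one group reached the range of the other, and the P16 mature library stood highest. The difference was 4.08-fold (log2 2.03, SE 0.19, edgeR adjusted p = 5.44e-05), from 98.1 ± 14.3 TPM (SD, n = 4) in progenitors to 370 ± 101 TPM (SD, n = 3) in mature neurons. It was exceeded by 515 of the tested genes (2.87%). At matched ages the CPM ratio was 4.31 at P7 and 5.29 at P16.

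Pde4a (ENSMUSG00000032177) spans chr9:21165714-21213248 on the plus strand. Its level was 173, 227 and 239 TPM in the mature libraries of P2, P7 and P16, and 100.5, 92.1, 117 and 121 TPM in progenitors at P3, P7, P9 and P16. The groups did not overlap, though the gap between the highest progenitor library and the lowest mature library was smaller than for Adcy3 or Pde1c. Pde4a was 2.19-fold higher in mature neurons (log2 1.13, SE 0.14, edgeR adjusted p = 0.000262), with means of 213 ± 35.3 TPM (SD, n = 3) and 108 ± 13.6 TPM (SD, n = 4), and 2031 genes (11.3%) had a larger difference. The ratio of CPM was 2.69 at P7 and 2.22 at P16.

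The balance between the 2 phosphodiesterases differed between the populations. Pde1c TPM exceeded Pde4a TPM in every mature library, by a ratio of 1.45 to 2.03. In every progenitor library it was slightly below, with a ratio of 0.844 to 0.980 (mean 0.911, SD 0.0611) and group means of 98.1 and 108 TPM. These ratios were not tested. Adcy3 TPM was 1.05 to 1.20 times the sum of Pde1c and Pde4a in mature libraries and 0.624 to 0.947 times that sum in progenitor libraries. That sum leaves out the other phosphodiesterases. Over all genes for phosphodiesterases that act on cyclic AMP, the sum was 796 to 1041 TPM in mature libraries and 404 to 489 TPM in progenitor libraries. It was above Adcy3 in every library.

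Among the 16 genes for phosphodiesterases that act on cyclic AMP, Pde1c took a larger share in mature neurons and Pde4a did not. Pde1c made up 37.0%, 35.1% and 46.6% of their summed TPM in the mature libraries of P2, P7 and P16, and 22.0%, 20.05%, 23.5% and 22.2% in progenitors at P3, P7, P9 and P16. The means were 39.6% ± 6.18 (SD, n = 3) and 21.9% ± 1.43 (SD, n = 4; two-sided exact permutation p = 0.0286, adjusted p = 0.0381 over the 4 shares). The share of Pde1c was thus higher in all 3 mature libraries than in any progenitor library. The p of 0.0286 from the exact permutation test is the smallest the 35 arrangements allow. In level, 29.2% of all tested genes lay without overlap higher in mature neurons and 32.2% lower. Pde4a made up 21.7%, 24.2% and 23.0% in mature neurons and 23.4%, 22.8%, 24.0% and 26.2% in progenitors, in the same order of ages. These overlapped, with means of 23.0% ± 1.22 and 24.1% ± 1.498 (two-sided exact permutation p = 0.4, adjusted p = 0.4), so a difference in the share of Pde4a was not detected. The summed TPM of the family was 926 ± 123 (SD, n = 3) in mature neurons and 445 ± 37.2 (SD, n = 4) in progenitors.

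Another gene, Pde7b, which encodes a phosphodiesterase specific for cyclic AMP, had a larger share than Pde4a in every mature library and a smaller one in every progenitor library. It held 24.95% to 30.2% of the family's TPM in mature neurons and 14.3% to 20.03% in progenitors, and rose by 1.90 on the log2 scale (SE 0.19), from 76.3 ± 17.6 TPM to 258 ± 27.3 TPM. Pde1c, Pde4a and Pde7b together held 90.6% ± 3.58 of the family's TPM in mature neurons (SD, n = 3) and 63.1% ± 4.38 in progenitors (SD, n = 4). Much of the rest in progenitors was Pde8a, a high-affinity cyclic AMP phosphodiesterase named after its values were seen, at 17.9% to 26.9% against 1.97% to 5.92% in mature neurons. Pde8a fell by 1.14 on the log2 scale (SE 0.25, edgeR adjusted p = 0.00447).

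Over all tested genes, 28.8% were called higher in mature neurons and 30.0% lower. Of the 13 other cyclic AMP phosphodiesterases tested, 3 were called higher and 5 lower, with a median log2 difference of 0.39. Among those lower were Pde7a (-1.96, SE 0.17) and Pde1b, a relative of Pde1c that is also stimulated by calmodulin (-1.17, SE 0.12). The count of higher genes in the whole list of 15 tested, members included, was 5, and it was 8 without the P16 mature library. Of 5 tested phosphodiesterases that act on cyclic GMP or belong to the photoreceptor family, 1 was higher and 3 were lower. Pde6d, which encodes a carrier of prenylated proteins rather than an enzyme, rose by 1.30 (SE 0.09), while Pde5a fell by 2.07 (SE 0.24) and Pde9a fell by 0.65 (SE 0.17). Without the P3 progenitor library, 2 of these were called higher.

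**Figure D2:**
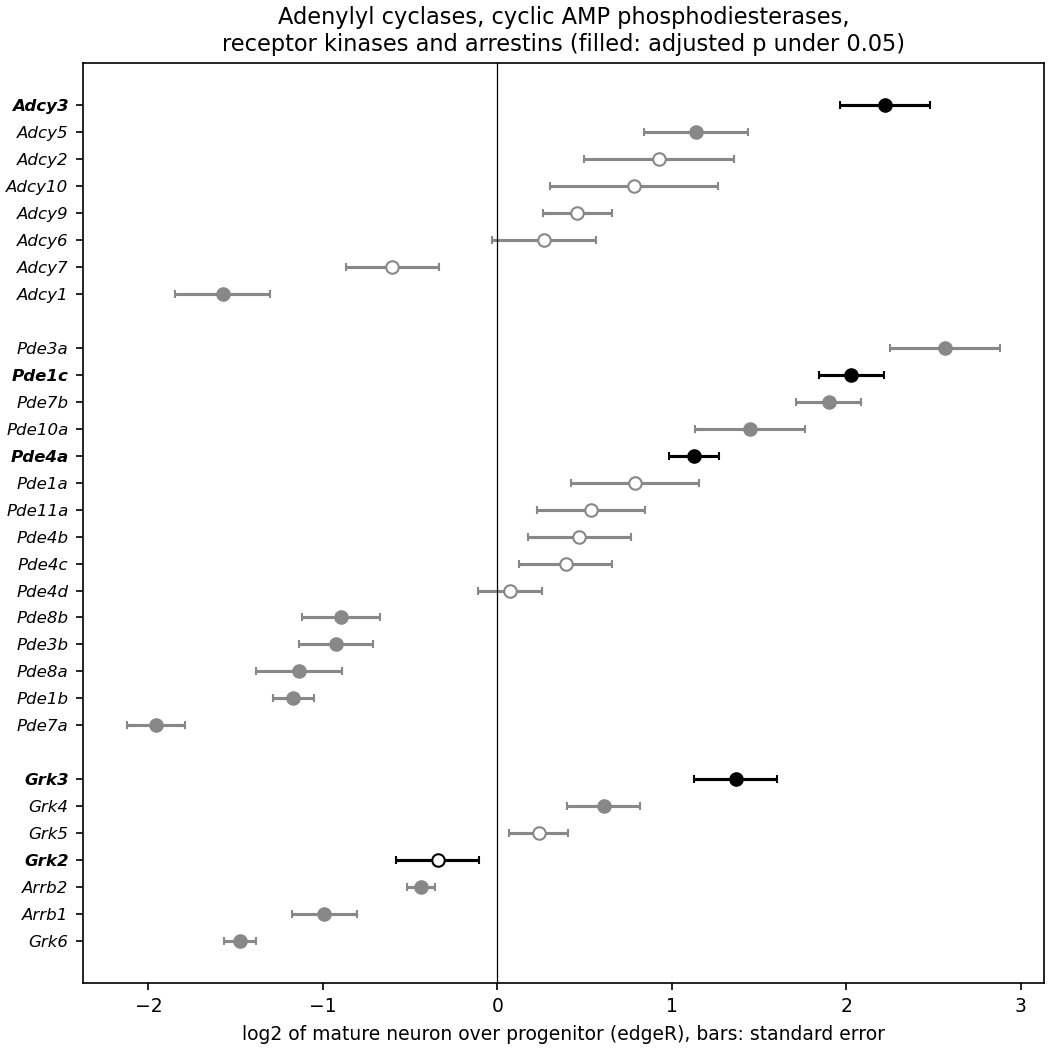
Log2 difference of mature neurons over progenitors (x axis) for each tested adenylyl cyclase, cyclic AMP phosphodiesterase, receptor kinase and arrestin gene (y axis), from the edgeR fit, with bars for the standard error, filled points for an adjusted p under 0.05 and the 5 genes in bold and black. Adcy3 at 2.22 leads the cyclases, Pde1c at 2.03 and Pde4a at 1.13 are 2 of 5 phosphodiesterases called higher, and Grk2 at -0.34 is the unfilled member.

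For the receptor kinases, Grk3 was higher in mature neurons but scarce in every library, and Grk2 showed no detected difference. Grk3 (ENSMUSG00000042249) spans chr5:112910482-113015791 on the minus strand. Its level was 2.09, 1.91 and 1.74 TPM in the mature libraries of P2, P7 and P16, and 0.890, 0.710, 1.18 and 0.770 TPM in progenitors at P3, P7, P9 and P16. These values rest on 197, 158 and 164 counts in mature libraries and 96, 53, 95 and 60 counts in progenitor libraries. The lowest mature library was above the highest progenitor library, P9.

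Grk3 was 2.58-fold higher in mature neurons (log2 1.37, SE 0.24, edgeR adjusted p = 0.00140), with means of 1.91 ± 0.175 TPM (SD, n = 3) and 0.888 ± 0.209 TPM (SD, n = 4). On log2(TPM + 1), where the added 1 is as large as the level itself, the difference was 0.63 and still called. A larger difference was found for 1444 genes (8.03%). At matched ages the ratio was 3.27 at P7 and 3.11 at P16.

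Grk2 (ENSMUSG00000024858) spans chr19:4286001-4306222 on the minus strand. Its level was 8.33, 5.33 and 6.98 TPM in the mature libraries of P2, P7 and P16, and 12.5, 8.42, 8.04 and 5.95 TPM in progenitors at P3, P7, P9 and P16. The groups overlapped: the P16 progenitor library was below the P2 and P16 mature libraries, and the P3 progenitor library was the highest of all. The means were 6.88 ± 1.503 TPM (SD, n = 3) and 8.74 ± 2.76 TPM (SD, n = 4), and the log2 difference was -0.34 (SE 0.24, edgeR adjusted p = 0.241). With log2 of the postnatal day added to the model, the difference was -0.41 and was called (adjusted p = 0.0410).

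In all, 4 of the 5 genes were called higher in mature neurons, with groups that did not overlap, and none was called lower. Among all tested genes, 29.2% lay without overlap higher in mature neurons and 32.2% lower.

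**Figure D3:**
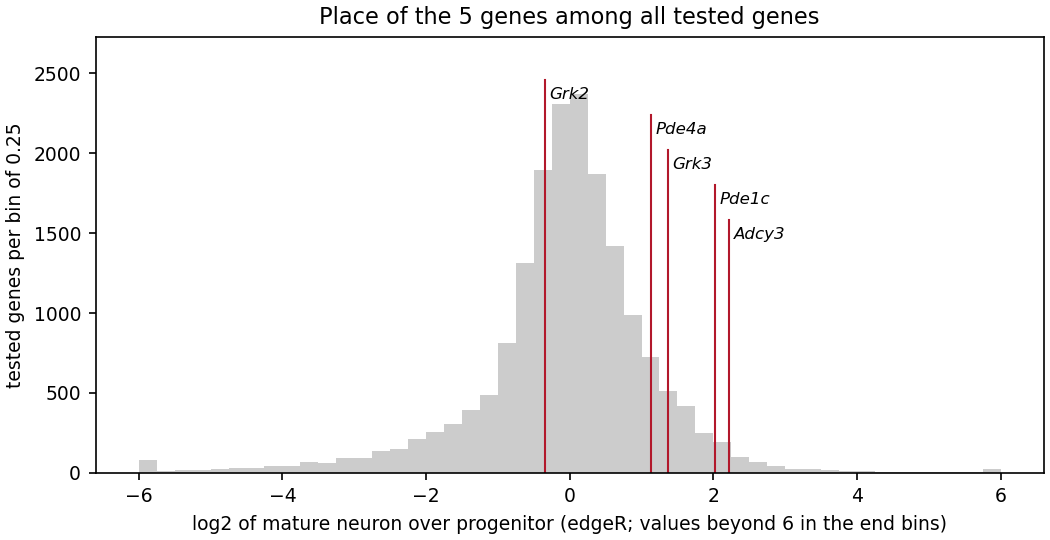
Number of tested genes (y axis) per bin of 0.25 in the log2 difference of mature neurons over progenitors (x axis, edgeR fit, 17975 genes, values beyond 6 in the end bins), with red lines at the 5 genes. Adcy3 and Pde1c lie in the right tail at 2.22 and 2.03, Grk3 and Pde4a nearer the bulk at 1.37 and 1.13, and Grk2 within it at -0.34.

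Grk2 transcripts outnumbered Grk3 transcripts in every library, but less so in mature neurons. The ratio of Grk2 to Grk3 TPM was 2.79 to 4.01 in mature libraries and 6.81 to 14.1 in progenitor libraries. Grk3 made up 20.1%, 26.4% and 19.95% of the pair in the mature libraries of P2, P7 and P16. In progenitors it made up 6.63%, 7.78%, 12.8% and 11.5% at P3, P7, P9 and P16. The groups did not overlap, at 22.1% ± 3.68 (SD, n = 3) against 9.67% ± 2.93 (SD, n = 4). The two-sided exact permutation p was 0.0286, the smallest the 35 arrangements allow (adjusted p = 0.0381 over the 4 shares). This share is computed from the levels of Grk2 and Grk3 and is not separate evidence. From counts, with no length scaling, the difference in share was 23.4 percentage points rather than 12.5 (adjusted p = 0.0381 by the same exact test). The 2 genes share no stretch of 50 exon bases.

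Among all 6 receptor kinase genes, Grk3 was the least abundant of Grk2 to Grk6 in each library, at 4.56% to 5.31% of the summed TPM in mature neurons and 1.01% to 1.76% in progenitors. Grk6, a kinase of many hormone and neurotransmitter receptors, was the most abundant, at 41.1% to 47.3% and 69.2% to 72.6%. Grk6 fell by 1.47 on the log2 scale in mature neurons (SE 0.09), from 50.5 ± 4.67 TPM to 17.2 ± 1.45 TPM, and the summed TPM of the 6 genes was 39.0 ± 0.673 (SD, n = 3) against 71.5 ± 5.94 (SD, n = 4). Grk4, named after its values were seen, was called higher (0.61, SE 0.21, edgeR adjusted p = 0.0334). That call was lost when any of 5 libraries was left out (mature P7 or P16, progenitor P3, P7 or P9). It was also lost with library sizes alone, in the limma fits to TPM and in the fit to P7 and P16 alone. In TPM the groups overlapped for Grk4, at 3.59 to 4.68 in mature libraries and 2.17 to 3.75 in progenitor libraries.

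Of 4 arrestin genes, whose products bind phosphorylated receptors, 2 were lower in mature neurons, and the other two, Sag and Arr3, did not pass the filter on low counts. Arrb2 fell by 0.44 on the log2 scale (SE 0.08), from 182 ± 7.10 CPM to 134 ± 14.3 CPM, and Arrb1 fell by 0.99 (SE 0.19), from 36.8 ± 5.26 CPM to 18.5 ± 4.41 CPM. Among the 5 tested genes of this list other than Grk2 and Grk3, 1 was higher and 3 were lower, with a median log2 difference of -0.44. Over all tested genes, 28.8% were higher and 30.0% lower.

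**Figure D4:**
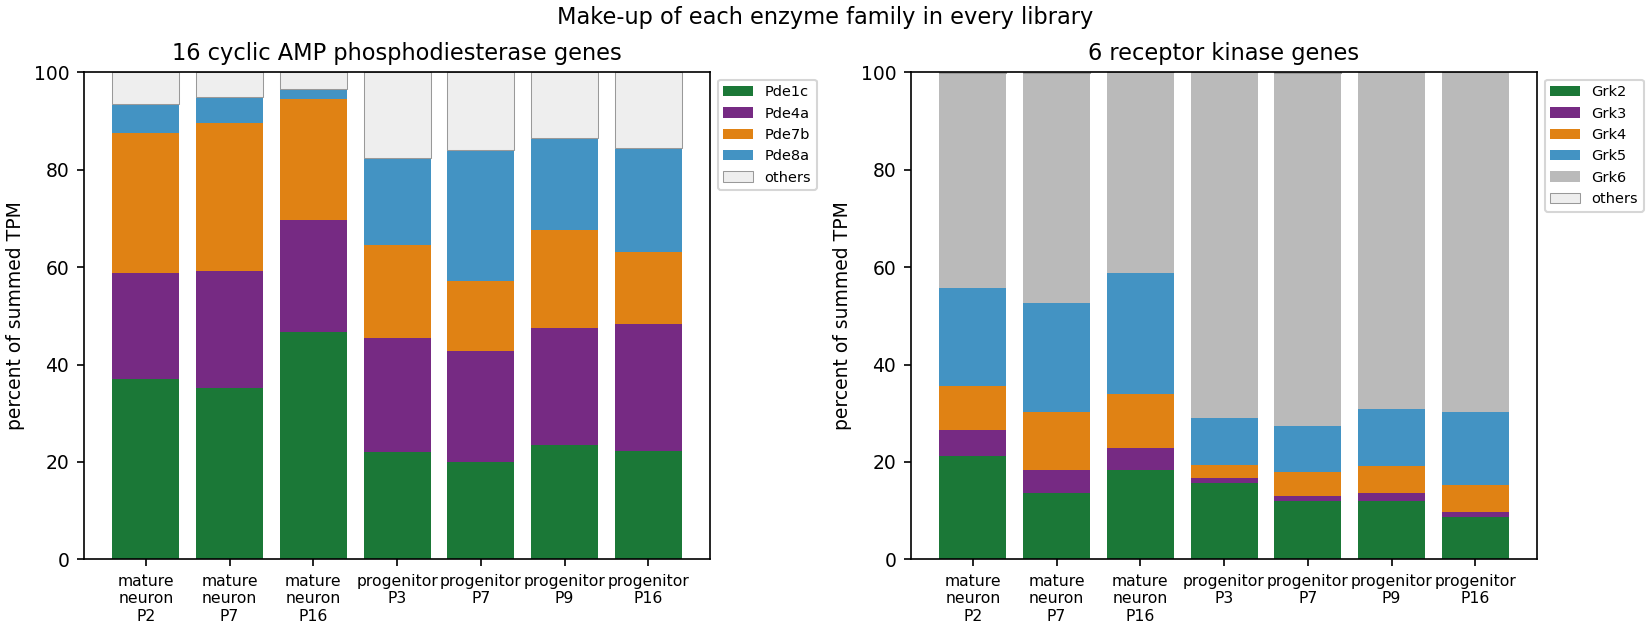
Percent of the family's summed TPM (y axis) in every library (x axis), as stacked bars. On the left, Pde1c, Pde4a, Pde7b and Pde8a of the 16 cyclic AMP phosphodiesterase genes are shown, with the rest summed as others. On the right, Grk2 to Grk6 of the 6 receptor kinase genes are shown, with Grk1 as others. Pde1c fills 35.1% to 46.6% of the mature bars against 20.05% to 23.5% of the progenitor bars, Pde4a fills a like part of all 7, and Grk6 fills most of each progenitor bar on the right.

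The genes around this cycle went in both directions. Of all tested genes, 28.8% were called higher in mature neurons and 30.0% lower, so a mix of directions is not particular to these lists. Of 7 transduction channel and transporter genes, 6 were called higher in mature neurons and none lower, with a median log2 difference of 2.03, near that of Adcy3 and Pde1c. Examples are Slc24a4, a sodium, calcium and potassium exchanger that helps end the response (2.19, SE 0.20), Ano2, the calcium-activated chloride channel (2.05, SE 0.17), and Cngb1, a modulatory subunit of the channel that cyclic AMP opens (2.03, SE 0.21). Of 15 genes for calmodulin, its kinases and related proteins, 8 were higher and 3 lower, with a median of 0.65. Camk1 rose by 1.38 (SE 0.08) and Camk2a by 1.14 (SE 0.09), while Camk2g fell by 0.75 (SE 0.08).

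Of 14 tested G protein genes and regulators, 4 were higher and 6 lower (28.8% and 30.0% of all tested genes), with a median of -0.22. Gng13, a gamma subunit of the olfactory G protein, rose by 1.64 (SE 0.13). Gnas, the widely used stimulatory alpha subunit, fell by 2.20 (SE 0.22), and Rgs2, a regulator of G protein signalling, fell by 2.89 (SE 0.27), from 58.3 ± 13.8 CPM to 7.86 ± 2.602 CPM.

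Of 11 tested effectors of cyclic AMP (subunits and inhibitors of protein kinase A and exchange factors), 2 were higher and 4 lower, with a median of -0.01. Over all tested genes, 28.8% were higher and 30.0% lower. When the P2 or the P7 mature library was left out, 2 of the effectors were lower. The 3 genes for inhibitors of protein kinase A did not go one way. Pkib rose by 1.49 (SE 0.16) and Pkia by 0.52 (SE 0.10), while Pkig, named after its values were seen, fell by 0.19 (SE 0.07, edgeR adjusted p = 0.0341). Prkar1a, a regulatory subunit of the kinase, fell by 0.38 (SE 0.09).

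Age was followed over 3 mature and 4 progenitor libraries. In mature neurons the P16 level in CPM was 1.82 times the P2 level for Adcy3, 1.66 times for Pde1c and 1.42 times for Pde4a. It was 0.844 times for Grk3 and 0.687 times for Grk2. In progenitors the P16 level was 0.82899 times the P3 level for Adcy3, 1.02 times for Pde1c, 1.21 times for Pde4a, 0.634 times for Grk3 and 0.568 times for Grk2. These ratios within a population were not tested.

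A common slope for the 2 populations, as the log2 change each time age doubled, was 0.13 for Adcy3 (SE 0.11, edgeR adjusted p = 0.539), 0.15 for Pde1c (SE 0.07, adjusted p = 0.240) and 0.15 for Pde4a (SE 0.04, adjusted p = 0.117). It was -0.14 for Grk3 (SE 0.10, adjusted p = 0.490) and -0.25 for Grk2 (SE 0.07, adjusted p = 0.107). Across the 17975 genes, 0 (0%) were called for the age slope by edgeR, although 3746 had an unadjusted p under 0.05, and DESeq2 called 647 higher and 853 lower with age. DESeq2 called Pde4a (0.16, adjusted p = 0.0207) and Grk2 (-0.24, adjusted p = 0.0349) among them, and none of the other 3 genes. Without the P2 mature library the Adcy3 slope was 0.003, without the P16 mature library 0.03 and without the P3 progenitor library 0.29. The Pde1c slope was 0.05 without the P16 mature library, and the Grk3 slope was -0.09 without the P3 progenitor library.

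The difference of slopes, mature neurons minus progenitors, was largest for Adcy3 at 0.36 (SE 0.20, edgeR adjusted p = 0.820). It was 0.20 for Pde1c, 0.05 for Pde4a, 0.13 for Grk3 and 0.13 for Grk2, with adjusted p from 0.8287 to 0.944. Without the P3 progenitor library the difference was -0.02 for Adcy3 and 0.07 for Pde1c, and for Pde1c it was 0.04 without the P16 mature library and 0.46 without the P2 mature library. None was called, as for every tested gene (0%, with 1075 at an unadjusted p under 0.05). The library of mature neurons at P16, highest for Adcy3, Pde1c and Pde4a, also had the highest sum of mature markers and of leukocyte, erythroid, Bowman gland, ensheathing glia, endothelium and fibroblast, microvillous (among mature libraries) and respiratory ciliated markers. The P7 progenitor library, lowest for the same 3 genes, had the lowest sum of mature markers, 5599 CPM. The part of these in the age values was not tested.

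The patterns of Adcy3 and Pde1c over the 7 libraries were the closest of the 10 pairs among the 5 genes. Likeness was measured as the root mean square difference of log2 CPM after centring each gene, and it was 0.21 for Adcy3 and Pde1c, against 1.34 for Adcy3 and Grk2, the most distant pair. These distances describe libraries that share the contrast between the populations. Among 9704 genes compared, the genes nearest to Adcy3 were Tmc5 (0.11), Slc24a4 (0.11) and Stom (0.12). Those nearest to Pde1c were Epha5, an ephrin receptor (0.08), Slc8a1, a sodium and calcium exchanger (0.09), and Ric8b, an exchange factor for the olfactory G protein (0.09).

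Fam53b (0.07), Nyap2 (0.07) and Clec16a (0.08) were nearest to Pde4a. The genes nearest to Grk3 were Aldoa, a glycolytic enzyme (0.10), Lgmn, a lysosomal protease (0.13), and Trmt2b (0.13). Those nearest to Grk2 were Tsen34 (0.13), Eif6 (0.14) and Lrp4 (0.16). Within 2 times the distance of the nearest gene lay 20 genes for Adcy3, 21 for Pde1c, 37 for Grk3, 95 for Pde4a and 417 for Grk2. The distance of the nearest gene ranged from 0.07 for Pde4a to 0.13 for Grk2, so these counts are not on a common scale.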

How the data were processed

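Poly(A) RNA from sorted cells was made into libraries with a strand-marking kit, per the labels' protocols. Per the submitters' processing notes, the tools included bcl2fastq 2.18, STAR 2.6.1c and RSEM, with build mm10. The sources used here give neither the annotation release, nor the strand setting, nor how multi-mapping reads were counted. The authors deposited whole-number read counts per gene and a table of TPM values, both per the file headers. Entries that name no gene held 23.5% to 27.2% of each library and were left out. The main test was edgeR 4.0.16 (R 4.3.3) on the deposited counts, with the quasi-likelihood test, TMM scaling, the filterByExpr filter and Benjamini-Hochberg adjustment at 0.05. CPM were computed with TMM factors. Age slopes used log2 of the postnatal day, with population and then an interaction as terms; the 3 fits left 5, 4 and 3 residual degrees of freedom. Shares of summed TPM were compared by exact permutation over 35 arrangements. The fits were also run on simulated counts with a common spread and few changed genes, as many up as down. These data differ from that setting, so the run checked the code only. Alternatives were DESeq2 1.42.0, limma 3.58.1 on log2(TPM + 1) or log2(TPM + 0.1), other scalings and filters, age terms, and leaving out each library. Positions come from GENCODE M21, which held 54409 of the 54532 gene identifiers.

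The 5 genes, the gene lists and the tests were chosen with earlier results of these data known. Besides the 5, the text names from each list up to 3 called genes with the smallest p whose mean reached 10 CPM in the population where they were higher, and for each of the 5 the 3 nearest genes with a mean of at least 10 CPM. Genes outside this rule that were picked by their values are said to have been named after their values were seen.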

Additional observations from a re-analysis of the deposited data

How the results depend on the processing

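The calls of Adcy3, Pde1c, Pde4a and Grk3 as higher in mature neurons held in all 16 alternatives, with log2 differences of 1.98 to 2.73, 1.77 to 2.27, 0.97 to 1.30 and 0.63 to 1.68. Grk2 ranged from -0.56 to -0.16 and was called only with log2 postnatal day as a covariate (-0.41). Scaling by library size alone moved the median of all tested genes from 0.01 to -0.13. On log2(TPM + 1), 39.6% of all called genes were higher in mature neurons. The count of genes with an age slope was 0 in each direction, 438 higher and 686 lower with linear postnatal day, and 647 and 853 with DESeq2. Leaving out the P7 mature library gave 367 higher and 619 lower, and leaving out any other library gave 0 in each direction. DESeq2 called the age slopes of Pde4a (0.16) and Grk2 (-0.24). For the difference of slopes, leaving out each library gave 0 to 1 genes higher and 0 to 2 lower. The difference itself ranged from -0.02 to 0.45 for Adcy3, 0.04 to 0.46 for Pde1c, -0.14 to 0.11 for Pde4a, -0.004 to 0.27 for Grk3 and -0.03 to 0.38 for Grk2. Without the P3 progenitor library it was negative for 4 of the 5 genes (Adcy3 -0.0217, Pde4a -0.14, Grk3 -0.00369, Grk2 -0.0253), as it was for Grk2 without the P16 mature library (-0.0177). The causes were not tested. Of 336 values for 21 named pathway genes under the alternatives, 0 lost their call. These genes were picked for a small p in the main fit, so that outcome was nearly fixed in advance. It does not extend to the other genes of the lists. Grk4, outside that pick, lost its call when some libraries were left out and in some other alternatives. The labels give no replicate numbers that could pair libraries. A fit to P7 and P16 alone, with age as a replicate block, kept the direction and call of each of the 5 genes. It leaves fewer residual degrees of freedom than the main fits, so its calls rest largely on spread shared across genes. Shares taken from counts kept their direction and side of the threshold. Of the 5 genes, Grk3 had the fewest counts, 53 to 197 per library.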
